A study of Mus musculus with 15 samples.

Results

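The genes described here are 44 genes of DNA replication and of the passage from G1 into S phase, chosen by name and not by their values. The rule kept every listed gene that was above 0 in at least 3 libraries of the deposited table, and all 44 listed genes met it, out of 23420 genes in the table and 11190 that met the same filter. Of the 44, 38 were above 0 in all 15 libraries; the others were Gins3, Mcm10, Pold1 and Pole (14 libraries each), E2f1 (13) and Orc1 (11). RNA was measured in mouse B cells sorted from draining lymph nodes on day 12 after transfer and immunization, with 100 cells per library and 3 libraries in each of 5 groups. All donor cells carried the B1-8hi (KI/+) knock-in, a heavy chain that with lambda light chains binds the hapten NP, went into C57BL6 hosts, and met NP-CGG in complete Freund's adjuvant. Germinal centre cells (B220+CD38loGL7hi, CD45.1+) came from donors that also carried a Bcl6-YFP (KI/+) reporter. They were split into dark zone cells (DZ, CXCR4hi CD86lo) and 3 light zone fractions: Fraction 3 (Bcl6hi CD69lo), Fraction 2 (Bcl6hi CD69hi) and Fraction 1 (Bcl6lo CD69hi). Germinal centre derived plasmablasts (GC-PB, CD138hi CD44hi tdTomato+, CD45.1+) came from other donors, with S1pr2-ERT2cre Tg and ROSA-Ai14 (KI/+), in hosts given tamoxifen on days 6, 7 and 8. In those mice the label marks cells in which the S1pr2-driven Cre was active when tamoxifen was given. The replicates are independent library preparations, and separate animals are not stated, so p-values reflect only how much these libraries vary, in part perhaps for technical reasons.

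Before a cell copies its genome, the origin recognition complex with CDC6 and CDT1 loads the ring-shaped MCM helicase onto DNA in G1, and CDC45 and the GINS complex turn that ring into the active helicase at S phase entry. Polymerases alpha, delta and epsilon then synthesise DNA, delta and epsilon with the clamp PCNA. RPA coats single strands, FEN1 and LIG1 join the lagging strand fragments, and CAF-1, UHRF1 and DNMT1 rebuild chromatin and methylation behind the fork. Many of these genes are targets of E2F transcription factors, which are released as the activity of G1 cyclin kinases rises. Dark zone B cells are known for rapid division, light zone cells for selection by antigen and T cell help, and plasmablasts for antibody secretion by cells that may still divide.

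Because E2F factors regulate many of these genes, the promoter windows of RefSeq (build GRCm38.p6, 250 bases before to 50 bases after each transcript start) were searched on both strands for the E2F-type sites TTTCCCGC, TTTGCCGC, TTTCGCGC and TTTGGCGC. Windows were found for 36 of the 44 genes, and 16 of the 36 (44.4%) held a site. The share was 5.01% of the 8258 tested genes with a window (414 genes) and 2.60% of all 27025 genes in the table of windows. Sites can overlap each other, as they do in Mcm5 and Mcm6. The stretches below are 30 bases of the 6 genes that hold a site and had the widest spread of the 5 group means. Each is written 5′ to 3′ on the gene's own strand, with the site in capitals. GC-PB had the lowest mean for 39 of the 44 genes, so a choice by spread favours genes that are low there. That 5 of these 6 genes fell in GC-PB on every scale examined below therefore says nothing about the sites.
Pold1: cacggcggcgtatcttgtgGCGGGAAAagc
Pola1: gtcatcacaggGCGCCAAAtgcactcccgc
Uhrf1: cccgagtcgggTTTCGCGCgcccaggcgtc
Mcm3: gGCGGGAAAacttgggaagtTTTGGCGCca
Mcm7: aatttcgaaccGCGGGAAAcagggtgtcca
Mcm7: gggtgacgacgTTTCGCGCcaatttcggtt
Lig1: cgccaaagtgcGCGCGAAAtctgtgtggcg
These lie at chr7:44548766-44548795 for Pold1, chrX:93632275-93632304 for Pola1, chr17:56304117-56304146 for Uhrf1 and chr1:20820265-20820294 for Mcm3. The Mcm7 stretches are at chr5:138172030-138172059 and chr5:138171849-138171878, and that of Lig1 at chr7:13278841-13278870. Uhrf1 and Lig1 are on the plus strand and the others on the minus strand. Counted from 1 at the RefSeq start, the sites begin 40 bases in for Pold1, 20 and 39 bases in for Mcm3, 17 bases in for the later Mcm7 site and 27 bases in for Lig1, while those of Pola1, Uhrf1 and the earlier Mcm7 site begin 138, 185 and 165 bases before it. A match describes letters in a window and is not a measured binding site.

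The libraries hold values that stand for 165747 to 359076 molecules. Levels here are the deposited values per 100000 of each library's total (equal totals, with the ribosomal precursor Rn45s left out of the total), where 1 molecule is worth 0.278 to 0.603; means carry SDs over 3 libraries, and these cover no more than the spread between libraries. The sorted states were visible in their markers. The summed germinal centre markers ran from 128 to 210 in DZ, Fraction 3 and Fraction 2, from 37.8 to 56.8 in Fraction 1 and from 3.02 to 5.10 in GC-PB, and the plasmablast markers from 5111 to 6760 in GC-PB against 60.4 to 194 elsewhere. Among markers of other cells, Cd3e, Cd4 and Alas2 were at 0 in all libraries, and the summed T cell markers ran from 0 to 15.2, most of it Lck (group means 4.73, 11.3, 13, 10.3 and 0.884 from DZ to GC-PB). The summed macrophage and dendritic cell markers ran from 1.53 to 9.08, mostly Flt3, and the naive B cell markers from 10.9 to 49.6, with Fcer2a at 18.5 ± 2.44 in Fraction 2 and 36.5 ± 5.56 in Fraction 1. Pax5, a defining B cell gene, was at or near 0 throughout (0 to 0.398 by group mean). The part of these other markers in the members' levels was not tested. In a divide the labels do not describe, Xist read 27.3 ± 4.05 (Fraction 1), 33.2 ± 4.43 (GC-PB) and 0 elsewhere (9 libraries), and Ddx3y was 12.4 to 14.2 by group mean in those 9 libraries and 0 to 0.0657 in Fraction 1 and GC-PB. Fraction 1 and Fraction 2 lie on different sides of this divide, so that in their comparison cell state and whatever this divide stands for cannot be told apart. The same holds for GC-PB beside DZ, which differ in donor genotype and tamoxifen as well. GC-PB replicate 1 stood apart from the other plasmablast libraries, with a sum over the 44 genes of 185 against 401 and 380, and results that rest on GC-PB are also given without it.

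Taken as a sum, transcripts of the 44 genes made up a like share of the total in DZ, Fraction 3 and Fraction 2, less in Fraction 1 and least in GC-PB. The sums in the libraries were 778, 721 and 720 in DZ, 795, 707 and 778 in Fraction 3 and 686, 753 and 714 in Fraction 2. They were 512, 526 and 592 in Fraction 1 and 185, 401 and 380 in GC-PB. No library of Fraction 1 reached any of the 9 libraries of DZ, Fraction 3 and Fraction 2 (the first 3 groups), and no library of GC-PB reached Fraction 1. The mean in Fraction 1 was 75.7% of that in Fraction 2, and the mean in GC-PB 59.3% of that in Fraction 1 and 43.5% of that in DZ. As deposited, without equal totals, the Fraction 1 mean was above that of Fraction 2 (ratio 2.08), GC-PB was below Fraction 1 (ratio 0.374), and GC-PB was close to DZ (ratio 0.955). In sorted pools, fewer cells in S phase and less RNA per such cell cannot be told apart. Across the 5 groups, limma's F test called 36 of the 44 genes, against 45.5% of all genes tested. Cdt1, Gins2, Gins4, Prim2, Rpa2, Fen1, Ccne1 and Cdc25a did not pass it. GC-PB had the lowest mean for 39 genes; the highest mean was in Fraction 3 or Fraction 2 for 15 genes each, in DZ for 11, in Fraction 1 for 2 and in GC-PB for 1.

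**Figure D1:**
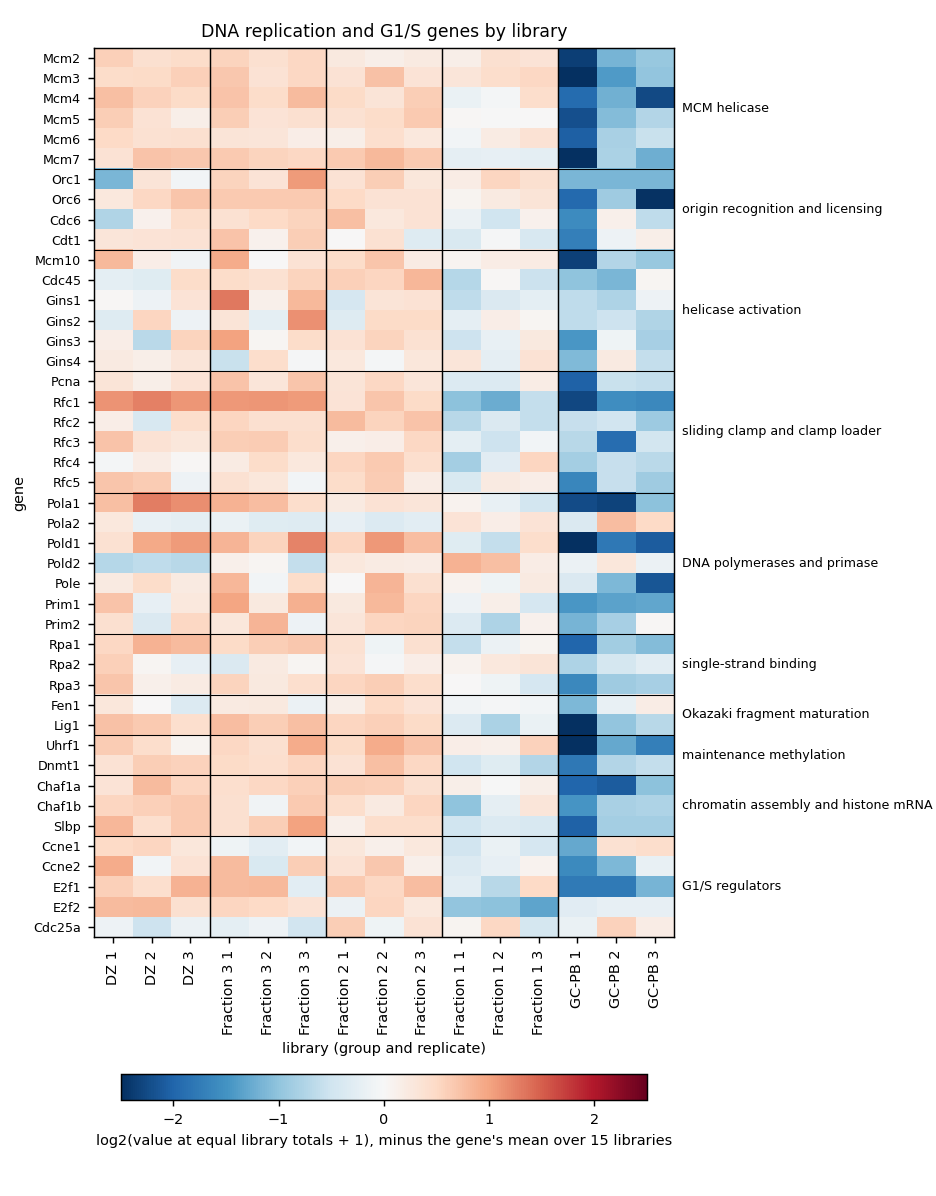
Level of each of the 44 genes in each of the 15 libraries, as log2(value at equal totals + 1) minus the gene's mean over all libraries (colour, limited to 2.5 either way), with genes in rows by role and libraries in columns by group. The GC-PB columns are the bluest, with GC-PB replicate 1 lowest for most rows, while Pola2 and E2f2 break the pattern.

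The 6 MCM genes, the subunits of the replicative helicase ring, were close to level from DZ to Fraction 2 and all fell in GC-PB. Their summed level was 193 ± 4.91 in DZ, 191 ± 12.3 in Fraction 3, 186 ± 9.09 in Fraction 2, 149 ± 12.98 in Fraction 1 and 50.1 ± 25.2 in GC-PB. Mcm3 (chr1:20802968-20820312) read 30.7, 31.1 and 34.1 in DZ, 35.6, 28.6 and 31.9 in Fraction 3 and 28.7, 37.3 and 28.4 in Fraction 2. It was at 27.4, 30.4 and 32.2 in Fraction 1 and at 1.21, 7.66 and 10.7 in GC-PB, so that Fraction 1 overlapped each of the first 3 groups and GC-PB overlapped none. Mcm2 (chr6:88883474-88898780) was 29.9, 26.1 and 26.99 in DZ, 29.2, 25.9 and 28.3 in Fraction 3 and 23.1, 21.5 and 22.97 in Fraction 2. In Fraction 1 it was 21.6, 25.9 and 25.04 and in GC-PB 3.02, 8.17 and 9.63, so that Fraction 1 overlapped Fraction 2 and Fraction 3 and GC-PB lay below all of them. Mcm4 (chr16:15623897-15637400), which forms the core of the ring with Mcm6 and Mcm7, was 28.6, 25.03 and 23.6 in DZ, 27.7, 23.2 and 29.2 in Fraction 3, 23.4, 20.9 and 25.8 in Fraction 2, 14.6, 15.9 and 22.6 in Fraction 1 and 3.62, 6.64 and 2.68 in GC-PB. Mcm5 (chr8:75109569-75128439), the partner of Mcm2 at the ring's gate, was 35.3, 29.7 and 25.5 in DZ, 35.2, 29.1 and 30.6 in Fraction 3, 29.9, 31.7 and 36.6 in Fraction 2, 23.2, 22.6 and 22.97 in Fraction 1 and 4.22, 10.3 and 13.4 in GC-PB. Fraction 1 held the Mcm5 level in a narrow band below all 9 libraries of the first 3 groups. Mcm7 (chr5:138164583-138172422) was 30.7, 39.3 and 38.6 in DZ, 37.9, 35.4 and 34.2 in Fraction 3 and 37.7, 42.4 and 37.7 in Fraction 2. It was 20.1, 20.3 and 19.8 in Fraction 1 and 2.41, 13.3 and 9.63 in GC-PB, which gave the widest gap of the MCM genes between Fraction 1 and Fraction 2, though it was not called there (log2 change -0.93). Mcm6 had means of 41.1 ± 1.78 in DZ, 34.4 ± 5.17 in Fraction 1 and 14.6 ± 7.12 in GC-PB. In GC-PB replicate 1 these genes rested on few molecules, from 2 for Mcm3 to 11 for Mcm6.

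**Figure D2:**
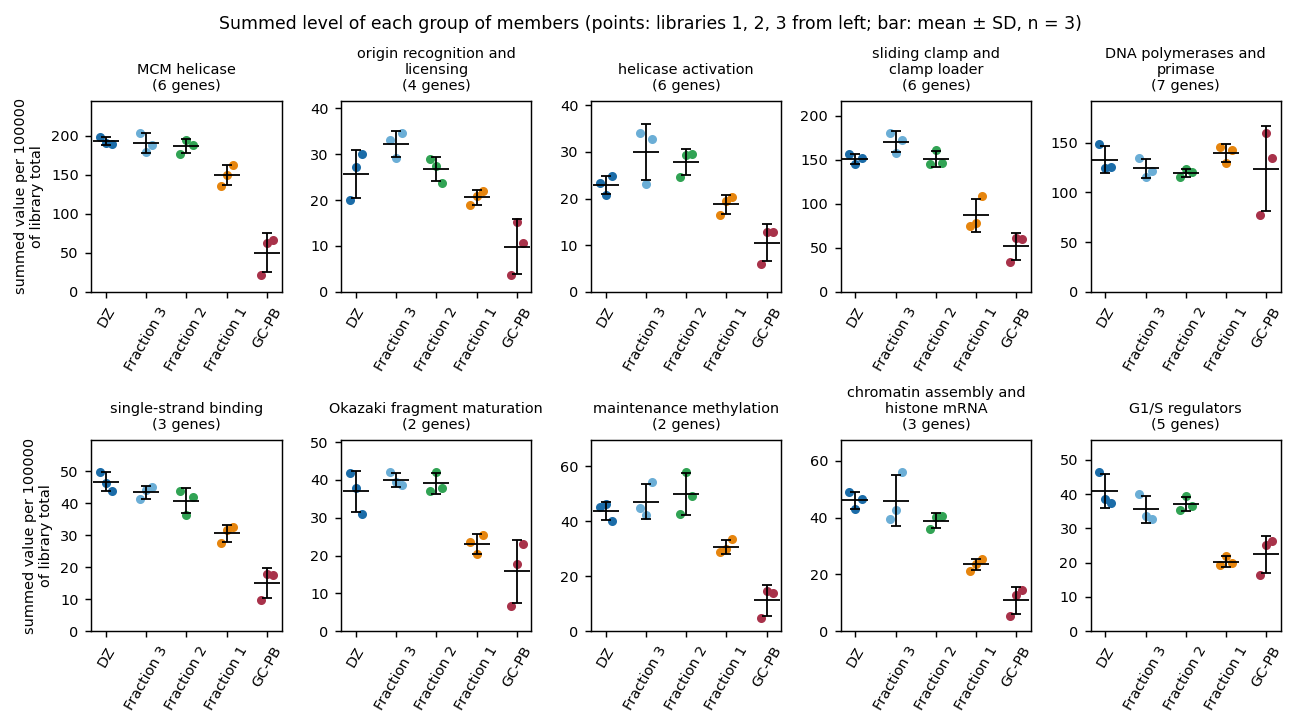
Summed level per 100000 of the library total (vertical axis) of each group of genes by role in the 5 groups (horizontal axis); points are libraries and bars the mean ± SD of 3 libraries. The MCM panel runs from 193 ± 4.91 in DZ to 50.1 ± 25.2 in GC-PB, while the polymerase panel, which holds Pola2, shows no such fall, with 133 ± 13.5 in DZ and 124 ± 42.5 in GC-PB. Most of that sum is Pola2, at 84.0 ± 17.1 in DZ and 111 ± 40.9 in GC-PB.

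Among the genes that mark and license origins, Orc6 and Orc1 had their lowest levels in GC-PB. Orc6 (chr8:85299632-85308278), a subunit of the origin recognition complex, was 9.13, 11.1 and 12.7 in DZ, 12.4, 12.3 and 12.3 in Fraction 3 and 10.9, 9.86 and 9.92 in Fraction 2. Its level was 7.93, 8.91 and 9.57 in Fraction 1 and 1.21, 3.57 and 0.535 in GC-PB, where every library was below every other group. Orc1 (chr4:108579423-108614833), the largest subunit of that complex, was scarce, with 0, 1.79 and 1.12 in DZ, 2.25, 1.82 and 3.65 in Fraction 3, 1.87, 2.39 and 1.70 in Fraction 2 and 1.52, 2.23 and 1.91 in Fraction 1. It was listed at 0 in all 3 GC-PB libraries and also in DZ replicate 1, so no fold is given for it. The loading factors Cdc6 and Cdt1 had wide spreads. Cdc6 was 8.08 ± 1.67 in Fraction 2, 4.85 ± 1.22 in Fraction 1 and 3.51 ± 2.47 in GC-PB, and Cdt1 was 6.48 ± 1.78, 5.06 ± 0.930 and 4.59 ± 3.01 in the same groups.

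Of the 6 genes that activate the helicase, Cdc45 was lower in Fraction 1 and Mcm10 lower in GC-PB. Cdc45, part of the active helicase, was 7.49, 7.17 and 8.93 in Fraction 2, 2.44, 4.73 and 2.87 in Fraction 1 and 1.81, 1.53 and 4.82 in GC-PB. DZ, with 3.73, 3.58 and 6.75, lay between Fraction 1 and Fraction 3 (6.75, 6.36 and 7.30) and overlapped both. Mcm10 (chr2:4989714-5012791), which acts when the helicase starts to unwind, was 7.88, 4.65 and 3.75 in DZ, 8.62, 4.09 and 5.48 in Fraction 3, 5.93, 7.17 and 4.82 in Fraction 2 and 4.27, 4.73 and 4.78 in Fraction 1. In GC-PB it was 0, 2.04 and 1.61. The GINS subunits Gins1 to Gins4 were scarce, and none was called in any of the 5 comparisons of pairs of groups. Gins1 had its highest mean in Fraction 3 (5.08 ± 2.39), where the libraries spread from 2.72 to 7.50, and its lowest in GC-PB (1.46 ± 0.600).

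The sliding clamp and its loader had a lower summed level in Fraction 1 (87.1 ± 18.6) than in Fraction 2 (151 ± 8.73) at equal totals, and a higher one as deposited (92.1 ± 17.9 against 58.2 ± 1.85), both without overlap. Rfc1 (chr5:65261850-65335670), the large subunit of the clamp loader, was 41.1, 45.4 and 40.9 in DZ and 40.1, 40.9 and 39.2 in Fraction 3. It was 23.7, 30.5 and 26.1 in Fraction 2, 8.54, 7.24 and 11.8 in Fraction 1 and 3.02, 5.61 and 5.35 in GC-PB. The last 3 groups did not overlap each other or the first 2, while DZ and Fraction 3 did overlap. Pcna (chr2:132249162-132253314), the clamp itself, was 67.6, 59.7 and 68.96 in DZ, 89.98, 66.7 and 88.5 in Fraction 3, 68.00, 78.3 and 67.5 in Fraction 2, 42.7, 42.3 and 61.9 in Fraction 1 and 12.7, 36.2 and 35.3 in GC-PB. Fraction 1 replicate 3 overlapped DZ, and the other Fraction 1 libraries lay below every library of the first 3 groups. Rfc2, a small loader subunit, was 24.6, 20.9 and 23.5 in Fraction 2, 8.23, 10.6 and 8.93 in Fraction 1 and 9.05, 9.70 and 6.96 in GC-PB, with no overlap between the first 2 and an overlap between the last 2. Rfc3 (chr5:151642756-151651242), another small subunit, was 14.5, 11.1 and 10.5 in DZ, 13.5, 13.6 and 11.9 in Fraction 3, 9.36, 9.56 and 12.5 in Fraction 2, 7.01, 5.57 and 7.97 in Fraction 1 and 4.83, 1.53 and 5.89 in GC-PB. Fraction 1 and GC-PB overlapped for Rfc3. Rfc4 and Rfc5 had their lowest means in GC-PB, at 4.17 ± 0.497 and 2.49 ± 1.19.

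The polymerase genes did not move as 1 group: the catalytic subunits fell in GC-PB against Fraction 1, and Pola2 was not called. Pold1 (chr7:44532746-44548849), the catalytic subunit of polymerase delta, had the widest spread of group means of all 44 genes, 3.21 on the log2 scale. Its levels were 10.4, 15.7 and 17.2 in DZ, 14.6, 11.8 and 19.6 in Fraction 3 and 11.5, 17.3 and 13.9 in Fraction 2. They were 6.10, 4.73 and 10.8 in Fraction 1 and 0, 1.53 and 1.07 in GC-PB. Pola1 (chrX:93304767-93632155), the catalytic subunit of polymerase alpha, was 11.6, 17.2 and 15.7 in DZ, 12.7, 11.8 and 9.13 in Fraction 3, 7.80, 8.67 and 8.22 in Fraction 2, 7.01, 5.57 and 4.47 in Fraction 1 and 0.603, 0.510 and 2.68 in GC-PB, with group means in that descending order. Pole (chr5:110286306-110337474), the catalytic subunit of polymerase epsilon, was 4.15, 5.01 and 4.12 in DZ, 6.75, 3.18 and 5.02 in Fraction 3, 3.43, 6.87 and 4.82 in Fraction 2, 3.66, 3.06 and 4.15 in Fraction 1 and 2.41, 1.02 and 0 in GC-PB. Prim1 (chr10:128015168-128030037), the catalytic primase subunit, was 11.6, 5.72 and 8.25 in DZ, 14.2, 8.17 and 13.2 in Fraction 3 and 8.11, 12.5 and 10.2 in Fraction 2. In Fraction 1 it was 6.10, 7.52 and 4.78 and in GC-PB, in a narrow band, 1.81, 2.04 and 2.14. Pola2, the accessory B subunit of polymerase alpha, was 104, 75.8 and 72.6 in DZ, 74.1, 67.1 and 71.6 in Fraction 2, 110, 96.3 and 109 in Fraction 1 and 66.3, 146 and 121 in GC-PB. Its GC-PB libraries included both the lowest and the highest value of all 15. The values of Pola2 did not come to whole molecules (193.6 to 249.8 in DZ and 109.9 to 286.7 in GC-PB). Whether reads of other genes enter them was not tested. Pold2, the accessory subunit of polymerase delta, was 3.32, 3.58 and 3.37 in DZ, 6.75, 6.36 and 3.65 in Fraction 3, 7.49, 7.17 and 7.09 in Fraction 2, 11.9, 10.9 and 7.02 in Fraction 1 and 5.43, 7.66 and 5.35 in GC-PB, which made it the only member with its lowest mean in DZ.

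RPA, the complex that coats single-stranded DNA, was lowest in GC-PB for all 3 subunits. Rpa1 (chr11:75298166-75348324), the large subunit, was 21.6, 27.9 and 26.2 in DZ, 21.00, 23.2 and 24.2 in Fraction 3, 19.7, 13.7 and 19.8 in Fraction 2, 9.45, 13.4 and 15.6 in Fraction 1 and 3.02, 7.66 and 6.42 in GC-PB. Rpa3 (chr6:8255936-8259173), the small subunit, was 15.8, 10.4 and 10.9 in DZ, 14.2, 11.3 and 12.8 in Fraction 3, 14.04, 14.9 and 13.04 in Fraction 2, 9.45, 8.63 and 6.70 in Fraction 1 and 2.41, 4.59 and 4.82 in GC-PB. For Rpa3 the 3 Fraction 1 libraries lay below all libraries of the first 3 groups, and for Rpa1 they overlapped Fraction 2. Rpa2 was 9.50 ± 0.864 in Fraction 1 and 5.42 ± 1.11 in GC-PB.

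Of the genes that join lagging strand fragments, Lig1 was called lower in GC-PB than in Fraction 1. Lig1 (chr7:13277283-13311433), the ligase, was 27.4, 26.1 and 22.1 in DZ, 28.1, 25.4 and 28.1 in Fraction 3 and 24.02, 25.1 and 22.97 in Fraction 2. It was 12.5, 8.91 and 14.4 in Fraction 1 and 1.81, 7.66 and 9.63 in GC-PB, so that Fraction 1 lay below every library of the first 3 groups and overlapped GC-PB. Fen1, the flap nuclease, was 15.1 ± 1.97 in Fraction 2, 11.2 ± 0.223 in Fraction 1 and 9.47 ± 4.32 in GC-PB. It was not called in any comparison at equal totals.

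Uhrf1 and Dnmt1 copy DNA methylation to the new strand; Dnmt1 was called lower in Fraction 1 than in Fraction 2 and Uhrf1 lower in GC-PB than in Fraction 1. Uhrf1 (chr17:56303321-56323486), which reads hemimethylated DNA, was 25.7, 22.5 and 17.2 in DZ, 23.6, 21.8 and 31.9 in Fraction 3 and 23.1, 31.97 and 27.2 in Fraction 2. It was 18.3, 17.8 and 24.9 in Fraction 1 and 1.21, 6.13 and 4.28 in GC-PB. Dnmt1, the maintenance methyltransferase, was 19.5, 23.6 and 22.9 in DZ, 19.7, 26.00 and 21.8 in Fraction 2, 10.4, 11.98 and 8.61 in Fraction 1 and 3.62, 8.68 and 9.63 in GC-PB. Uhrf1 in Fraction 1 overlapped all of the first 3 groups, whereas the Dnmt1 libraries of Fraction 1 were all below them; whether the 2 genes' changes differ was not tested.

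The chromatin assembly subunits and Slbp, which binds histone mRNA, were lowest in GC-PB. Chaf1a (chr17:56040439-56072289), the large CAF-1 subunit, was 7.05, 10.01 and 8.25 in DZ, 7.50, 8.17 and 8.67 in Fraction 3, 8.73, 8.67 and 7.37 in Fraction 2, 6.10, 5.29 and 6.06 in Fraction 1 and 0.603, 0.510 and 2.14 in GC-PB. Chaf1b (chr16:93883901-93906115), the middle subunit, was 5.39, 5.72 and 6.00 in DZ, 4.87, 3.18 and 5.93 in Fraction 3, 4.99, 4.18 and 5.39 in Fraction 2, 1.22, 2.78 and 4.47 in Fraction 1 and 0.603, 1.53 and 1.61 in GC-PB. For Chaf1a, Fraction 1 lay between the first 3 groups and GC-PB without overlap, and for Chaf1b it overlapped both sides. Slbp (chr5:33634952-33652574) was 36.5, 27.2 and 32.2 in DZ, 26.99, 31.3 and 41.5 in Fraction 3 and 22.1, 27.5 and 27.8 in Fraction 2. It was 14.02, 15.6 and 14.99 in Fraction 1 and 4.22, 10.7 and 10.7 in GC-PB, with no overlap between Fraction 1 and its neighbours on either side.

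The regulators of G1/S went different ways. E2f2 (chr4:136172394-136196057), an activating E2F factor, was 21.2, 21.5 and 16.1 in DZ, 17.6, 17.3 and 15.5 in Fraction 3 and 10.6, 17.6 and 14.5 in Fraction 2. It was 5.49, 5.29 and 4.15 in Fraction 1 and 9.65, 10.2 and 10.2 in GC-PB, so that Fraction 1 was the lowest group and GC-PB lay above it in every library. E2f1 (chr2:154559407-154569892), its close relative, was 4.15, 3.58 and 5.25 in DZ, 4.87, 4.99 and 1.83 in Fraction 3, 4.37, 3.88 and 4.82 in Fraction 2 and 1.83, 1.11 and 3.83 in Fraction 1. In GC-PB it was 0, 0 and 0.535, that is, 1 molecule in 1 library. The cyclin E genes had means of 4.32 ± 0.498 (Ccne1) and 8.16 ± 3.18 (Ccne2) in DZ and of 2.99 ± 2.07 and 2.69 ± 1.89 in GC-PB. Cdc25a, the phosphatase that activates cyclin E and cyclin A kinases, was 7.17 ± 1.99 in Fraction 2, 5.99 ± 2.27 in Fraction 1 and 6.64 ± 1.93 in GC-PB.

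The comparisons among DZ, Fraction 3 and Fraction 2 ask whether replication genes separate the dark zone from Bcl6hi light zone cells, or CD69hi from CD69lo cells. Few genes of any kind were called in these comparisons, and the members' counts were near the share over all genes. Fraction 3 against DZ had 0 members called higher and 0 lower, where 0.429% and 0.331% of all genes were called. At an unadjusted p under 0.05 limma had 2 higher and 0 lower there. The members' log2 changes ran from -0.58 to 0.95 with a median of 0.07, and their 95% intervals from -1.32 to 1.66, so that single genes could differ by such amounts unseen. Fraction 2 against DZ had 1 member higher and 0 lower, where 1.54% and 1.55% of all genes were called, and 4 and 3 at an unadjusted p under 0.05. The member called higher was Pold2 (0.90 ± 0.24, adjusted p = 0.0466), and its call was lost when any of the 6 libraries compared was left out (0.88 to 0.92). Rfc1, at -0.65, was called lower in that comparison with a pseudocount of 2, with a mean of at least 1 as the filter and with the 2 groups alone, and not otherwise. Fraction 2 against Fraction 3 had 0 members called in either direction, where 0.277% of all genes were higher and 0.143% lower, and 1 each at an unadjusted p under 0.05; the members' changes had a median of 0.01 and 95% intervals from -1.37 to 1.15. Members whose groups did not overlap were also near that share: 3 higher and 2 lower in Fraction 3 against DZ (7.87% and 6.43% of all genes), 5 and 6 in Fraction 2 against DZ (10.3% and 10.1%), and 4 and 6 in Fraction 2 against Fraction 3 (8.59% and 8.38%).

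Fraction 1 against Fraction 2 compares Bcl6lo with Bcl6hi cells among CD69hi light zone cells. At equal totals, 5 members fell in Fraction 1 and 0 rose (as deposited 0 fell and 25 rose, as described below), where 4.96% of all genes were called lower and 2.89% higher. The 5 were the clamp loader subunits Rfc1 (-1.46 ± 0.19, adjusted p = 4.42e-05) and Rfc2 (-1.23 ± 0.19, adjusted p = 0.000317), the activator E2f2 (-1.33 ± 0.19, adjusted p = 0.000104), Dnmt1 (-1.06 ± 0.23, adjusted p = 0.00589) and Cdc45 (-1.06 ± 0.31, adjusted p = 0.0371). Cdc45 kept its call in 1 of the 6 fits that left out a library of these groups. The median change of the 44 genes was -0.49 against -0.06 over all genes, 40 of the 44 had a negative change, and 16 had an unadjusted p under 0.05 on the lower side. In 25 members every Fraction 1 library lay below every Fraction 2 library, where 16.3% of all genes did so; in 1 member, Pola2, every Fraction 1 library lay above, where 11.9% did. No MCM gene was called, with a median of -0.25 over the 6. Lat2, which overlaps the 3′ end of Rfc2 on the other strand, also fell (-0.81 ± 0.21, adjusted p = 0.0201). The counting strand is not given in the sources used here, so reads of Rfc2 and Lat2 may be mixed. Lig1, Slbp, Rpa3 and Mcm7 were called lower as well with a pseudocount of 2, with a mean of at least 1 as the filter, or with these 2 groups fitted alone, each of which called 10 members lower. Over all genes these settings called 5.24%, 8.44% and 5.39% lower and 3.5%, 4.85% and 4.07% higher. Of the 6 plasmablast markers, Irf4 was higher by mean in Fraction 1 (14.1 ± 2.45 against 4.14 ± 1.48), and Sdc1 and Prdm1 were near 0. Igj (15.6 ± 4.34 against 52.6 ± 4.36) and Mzb1 were lower by mean. Xbp1 was 11.6 ± 3.50 against 14.4 ± 4.01, a gap smaller than either SD. The sum of the 6 markers was lower (68.02 ± 6.84 against 113 ± 4.76). The summed germinal centre markers were lower in Fraction 1 (47.03 ± 9.50 against 134 ± 10.5), and the part of this in the members' levels was not tested.

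GC-PB against Fraction 1 compares the plasmablasts with the Bcl6lo CD69hi light zone fraction, in a series whose title speaks of plasma cell-prone germinal centre cells. The plasmablasts came from donors of another genotype, in hosts given tamoxifen. In this comparison cell state, donor genotype and tamoxifen cannot be told apart. At equal totals, 25 members fell and 1 rose, where 23.1% of all genes were called lower and 14% higher. All 6 MCM genes and all 3 RPA genes fell. So did 4 of the 6 clamp and loader genes, 4 of the 7 polymerase and primase genes, 2 of the 4 origin genes (Orc1, Orc6), 2 of the 3 chromatin genes (Chaf1a, Slbp), and Mcm10, Lig1, Uhrf1 and E2f1. Those with the smallest p were Mcm4 (-1.86 ± 0.22, adjusted p = 4.87e-07), Uhrf1 (-2.27 ± 0.29, adjusted p = 1.69e-06), Mcm2 (-1.78 ± 0.23, adjusted p = 2.56e-06) and Orc6 (-1.97 ± 0.28, adjusted p = 5.8e-06). Next came Chaf1a (-1.79 ± 0.26, adjusted p = 8.59e-06), Pold1 (-2.17 ± 0.32, adjusted p = 9.98e-06), Mcm3 (-2.35 ± 0.35, adjusted p = 1.44e-05) and Pola1 (-1.67 ± 0.28, adjusted p = 6.3e-05). Apart from Orc1, listed at 0, the other called members had changes from -1.49 (Mcm10) to -0.72 (Rpa2), on the log2(value + 1) scale, which understates the change of scarce genes. E2f2 was the member that rose (0.89 ± 0.19, adjusted p = 0.000709). The median change of the 44 genes was -0.84 against -0.13 over all genes, and 40 of the 44 were negative. In 24 members every GC-PB library lay below every Fraction 1 library (26.7% of all genes), and in 1 member, E2f2, above (16.1%).

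Single libraries mattered for part of this. Without GC-PB replicate 1, 22 members were lower and 2 higher, where 20.8% and 13.3% of all genes were, with a median of -0.60. All 6 MCM genes remained called, with changes from -1.80 (Mcm4) to -0.77 (Mcm7). Slbp (-0.44), Lig1 (-0.41) and Rpa2 (-0.58) lost their calls without it, Ccne1 gained one on the higher side (0.76), and the changes of Mcm6, Mcm7, Mcm10 and Pcna shrank by more than 1.5 times, to -0.85, -0.77, -0.99 and -0.42. Pole lost its call without GC-PB replicate 3 (-0.81), and Rfc3 without GC-PB replicate 2 (-0.30), Fraction 1 replicate 1 (-0.72) or Fraction 1 replicate 3 (-0.64). Lig1 (-0.86), Pcna (-0.72) and Rpa2 (-0.67) were not called without Fraction 1 replicate 3, nor Rpa2 without Fraction 1 replicate 2 (-0.70). With the spread estimated from these 2 groups alone, 14 members were called lower and 1 higher, where 17.9% and 10.9% of all genes were; Mcm6, Mcm7, Pcna and Lig1 were among those that missed the threshold. GC-PB replicate 1 had the highest summed plasmablast markers of the 3 libraries (6760 against 5111 and 5946) and the lowest replication sum, and their relation was not tested.

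**Figure D3:**
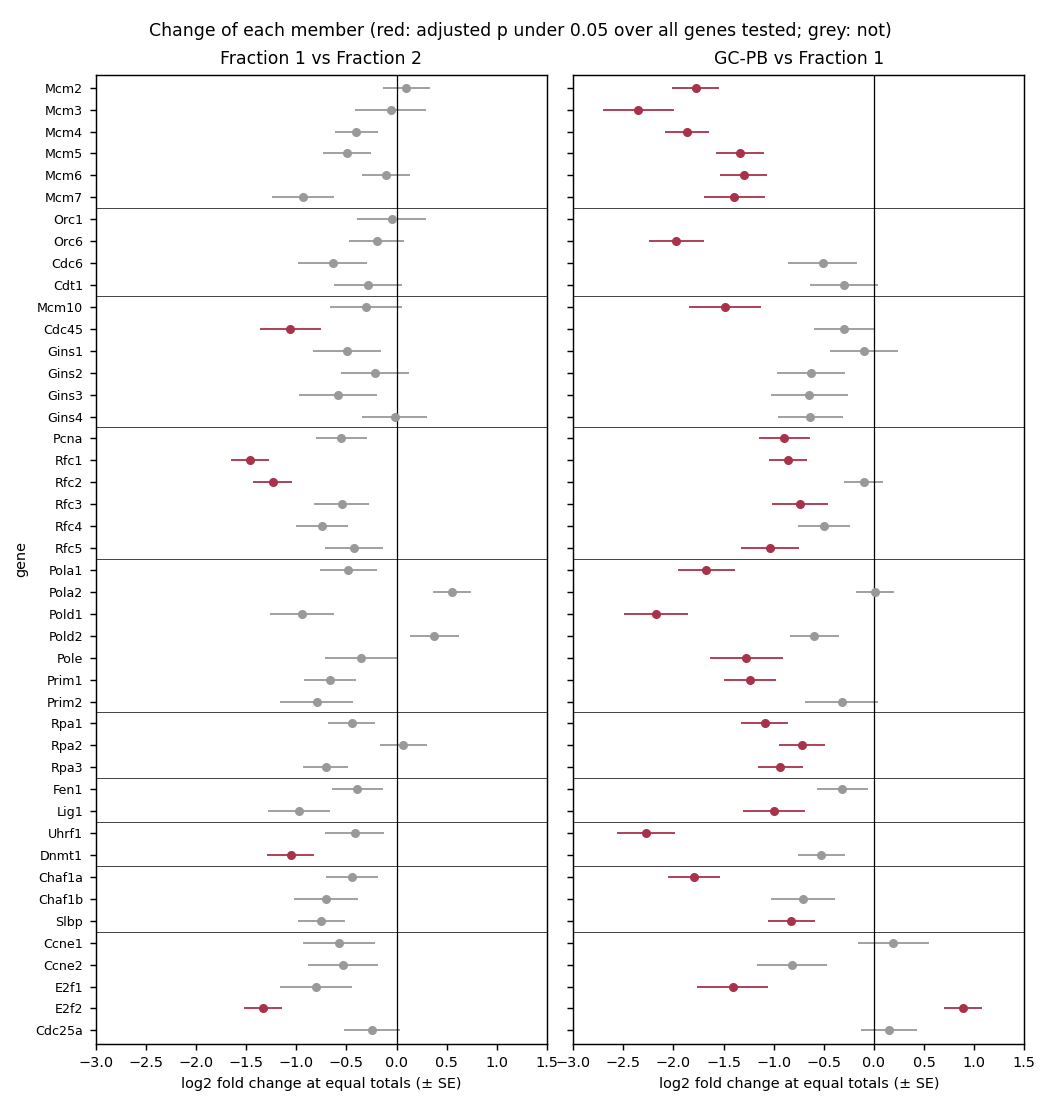
Log2 fold change at equal totals (horizontal axis, with SE) of each gene (vertical axis, by role) in Fraction 1 against Fraction 2 and in GC-PB against Fraction 1; red points have an adjusted p under 0.05 over all genes, and Orc1, listed at 0 in GC-PB, is left out on the right. The left panel has 5 red points, none of which was called as deposited, led by Rfc1 at -1.46, and the right panel runs from Mcm3 at -2.35 to E2f2 at 0.89.

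The direction between Fraction 1 and Fraction 2 depended on the scale. As deposited, totals averaged 32750 in DZ, 30564 in Fraction 3 and 40215 in Fraction 2, against 110747 in Fraction 1 and 72158 in GC-PB. The molecules averaged 262476, 235390, 335982, 333531 and 182837 from DZ to GC-PB. The deposited value of 1 molecule averaged 0.117, 0.123, 0.115, 0.318 and 0.358 in the same order. Fraction 1 and Fraction 2 thus differed in that value and hardly in molecules. On the deposited scale 25 members were called higher in Fraction 1 than in Fraction 2 and 0 lower, where 54.7% of all genes were higher and 0.563% lower. The median change was then 0.73 for the 44 genes and 0.64 for all genes. The 5 MCM genes other than Mcm7 were among those called higher (median 1.13 over the 6), and the summed MCM level was 158 ± 13.6 in Fraction 1 against 71.9 ± 3.66 in Fraction 2, a ratio of 2.20. The 5 genes that fell at equal totals lost that call as deposited: Rfc1 was at -0.09, E2f2 at -0.03, Rfc2 at 0.12, Cdc45 at 0.14 and Dnmt1 at 0.30. With median ratios in place of totals, which set the median of all genes at 0, 4 members were lower (Cdc45 was not called) and Pola2 was higher (0.67), where 3.47% and 3.94% of all genes were. The fall in GC-PB against Fraction 1 was called on every scale: 39 members lower and 0 higher as deposited (45.8% and 11.2% of all genes), and 20 lower and 1 higher with median ratios (17.9% and 18.2%). All 6 MCM genes were lower on each of the 3 scales. E2f2, higher at equal totals and with median ratios, was at 0.27 and not called as deposited. The summed MCM level of GC-PB was 26.0% of that of DZ at equal totals, and 0.57 times that of DZ as deposited. In Fraction 2 against DZ the deposited values gave Pold2 and Rfc2 as higher and 0 members as lower, where 3.03% and 0.42% of all genes were. Lat2, which overlaps the 3′ end of Rfc2, was also higher there by limma at equal totals (0.94 ± 0.21, adjusted p = 0.0150). Reads of Rfc2 and Lat2 may be mixed.

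**Figure D4:**
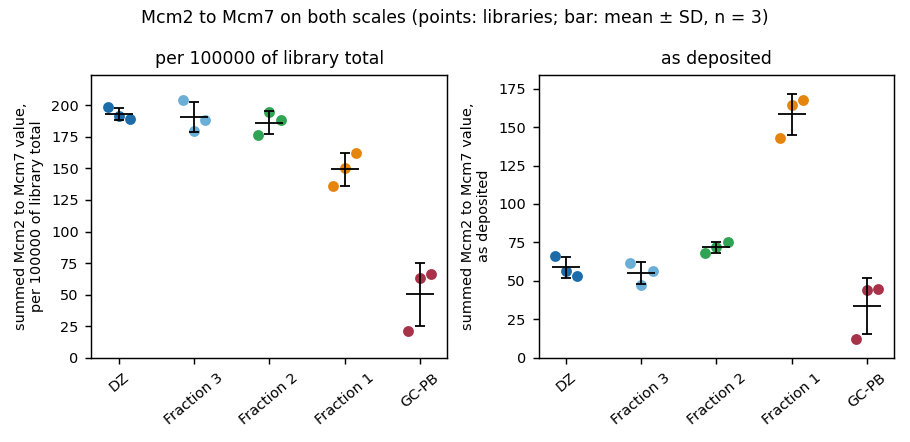
Summed level of the 6 MCM genes in each library by group (horizontal axis), per 100000 of the library total on the left and as deposited on the right (vertical axes, both from 0); points are libraries and bars the mean ± SD of 3 libraries. Fraction 1 is below Fraction 2 on the left (149 ± 12.98 against 186 ± 9.09) and above it on the right (158 ± 13.6 against 71.9 ± 3.66), while GC-PB is lowest on both.

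Other genes of the same processes, taken from lists that hold none of the 44, are given by their counts and medians. In Fraction 1 against Fraction 2 at equal totals, 4.96% of all genes were called lower and 2.89% higher, the share to set beside each list. Of 38 other replication factors, 5 were lower and 0 higher (median -0.20), among them Pold4 (-0.84), Top1 (-0.62), Clspn (-1.52) and Asf1b (-1.01). Of 27 other G1/S control genes tested, 5 were lower and 0 higher (median -0.37), including Cdc25b (-1.41), E2f8 (-1.49), Rbl1 (-1.15) and E2f7 (-1.42). Of 10 genes that supply nucleotides for S phase, 5 were lower and Dctpp1 higher (median -0.75). Dck, the deoxycytidine kinase of the salvage pathway, was 24.3, 33.5 and 28.4 in Fraction 2 and 5.49, 8.35 and 6.06 in Fraction 1 (-1.97 ± 0.22, adjusted p = 6.62e-06), and Tk1, the thymidine kinase, was 9.67, 9.56 and 11.3 and 1.83, 4.46 and 3.19. Of 30 mitosis genes, 21 were lower and 0 higher (median -1.14), and all 30 changes were negative. Mki67, the proliferation antigen, was 83.6, 79.5 and 77.97 in Fraction 2 and 26.8, 29.2 and 19.5 in Fraction 1 (-1.65 ± 0.15, adjusted p = 6.8e-07). As deposited these medians were 0.79, 0.41, 0.62 and 0.13 in the same order, beside 0.64 for all genes. Whether the mitosis and replication lists differ was not tested.

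In GC-PB against Fraction 1, 19 of the 38 other replication factors were lower and 1 higher (median -0.76). Over all genes, 23.1% were called lower and 14% higher, which is the share to set beside the counts of each list here. Nasp, a histone chaperone, was 29.6, 27.3 and 34.8 in Fraction 1 and 7.84, 5.61 and 4.82 in GC-PB (-2.17 ± 0.16, adjusted p = 5.25e-10). Pold4, a small polymerase delta subunit (-2.33), and Supt16, part of the histone chaperone FACT (-1.71), fell too, and Top1, the topoisomerase that relaxes DNA ahead of the fork, rose (1.55). Of the other G1/S control genes 9 were lower and 3 higher (median -0.38), and Cdca7 had the largest change of the list, from 19.2, 23.4 and 22.3 to 0, 0.510 and 1.07 (-3.95 ± 0.24, adjusted p = 2.19e-11). The 3 higher ones were Rb1, Cdkn1a and Cdkn1b, at 1.92, 0.99 and 1.03. Among the 9 lower ones were Rbl1 (-1.16), E2f4 (-1.43), E2f5 (-1.37) and E2f8 (-0.89). The naming rule did not cover all of these genes, and the 3 higher ones were chosen after their values were seen. Of the nucleotide genes 6 were lower and 2 higher (median -1.02), including Dut (-1.73), Dctpp1 (-1.90), Rrm1 (-1.80) and, on the higher side, Samhd1 (1.23), which degrades nucleotides. The other gene called higher, outside the naming rule, was Rrm2 (1.11), which serves nucleotide supply. Of the 30 mitosis genes 9 were lower and 3 higher (median -0.44), with Mad2l1 (-1.53), Cenpe (-0.99), Cenpf (-0.94) and Cdca8 (-1.21) those with the smallest p. The 3 higher ones were Mki67 (0.43), Prc1 (0.91) and Ube2c (0.61), likewise outside the naming rule. Without GC-PB replicate 1 the counts lower and higher were 16 and 1, 7 and 5, 6 and 2, and 4 and 2 in the order of these lists. Of all genes, 20.8% were then called lower and 13.3% higher.

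**Figure D5:**
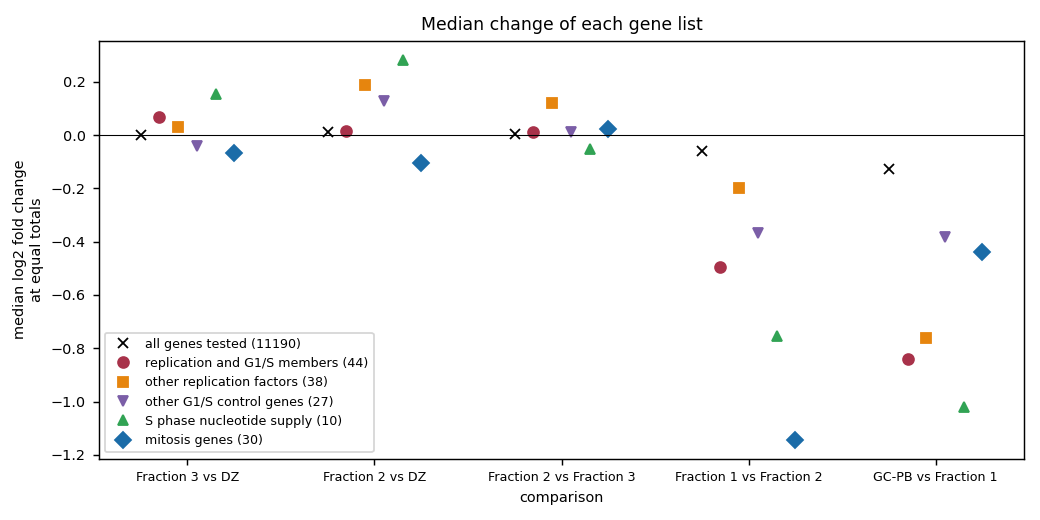
Median log2 fold change at equal totals (vertical axis) of all genes tested, the 44 genes and 4 other lists (symbols) in the 5 comparisons (horizontal axis). The medians lie between -0.10 and 0.28 among DZ, Fraction 3 and Fraction 2; the mitosis list is lowest in Fraction 1 against Fraction 2 (-1.14, and 0.13 as deposited), and the nucleotide list (-1.02) and the 44 genes (-0.84) are lowest in GC-PB against Fraction 1.

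Of the 38, 27, 10 and 30 tested genes of these lists, 2 genes were called in Fraction 3 against DZ, 5 in Fraction 2 against DZ and 0 in Fraction 2 against Fraction 3, where 0.429%, 1.54% and 0.277% of all genes were higher and 0.331%, 1.55% and 0.143% lower. Top1 fell from DZ to Fraction 3 (-0.61) and to Fraction 2 (-1.04), as did the histone chaperone Asf1a (-0.86 and -0.87). Cdc25b (-1.17) and Samhd1 (-0.92) were lower and Dctpp1 (0.80) higher in Fraction 2 than in DZ. None of the 30 mitosis genes was called in any of the 3 comparisons of these groups.

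E2F-type letters were about as frequent in the members that fell in GC-PB as in the others. A site was present in 10 of the 23 members lower in GC-PB than in Fraction 1 that had a window (43.5%) and in 6 of the 13 others (46.2%). By role, sites were found in 4 of 5 MCM genes with a window, in 3 of 4 origin and licensing genes, in both methylation genes and in none of the RPA and chromatin genes. Of the other lists, 10 of 32 other replication factors (31.25%), 7 of 20 G1/S control genes (35%), 0 of 9 nucleotide genes and 1 of 26 mitosis genes (3.85%) held a site. No window was matched for Mcm4, Gins1, Gins2, Gins4, Rfc2, Pole, Prim2 and Ccne2. All 44 genes are protein-coding in the GENCODE annotation of the same build, from which the gene positions above were taken. The 3′ ends of 8 of them lie inside another protein-coding gene (Mcm7 in Cops6, Cdt1 in Gm20388, Gins2 in Gm20388 and Gse1, Rfc2 in Lat2, Rfc4 in Eif4a2, Rfc5 in Wsb2, Ccne2 in Ints8, Chaf1a in Ubxn6), so values of these 8 are uncertain. In GC-PB against Fraction 1, Cops6 (-0.27), Wsb2 (0.55) and Ubxn6 (0.05) were not called, while Mcm7, Rfc5 and Chaf1a fell.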

How the data were processed

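RNA of 100 sorted cells per library was primed with oligo-dT that carries a molecular barcode, so that molecules are counted near the 3′ end, per the labels' protocols. TopHat2 (version not given in the sources used here) and mm10 are named in the submitters' processing notes. The unit is not stated: the values deposited by the authors are treated as a normalised signal, since 91.0% to 92.6% of them are whole multiples of 1 constant per library (0.105 to 0.362), which is read here as 1 molecule. No count model was used, because the recovered share was too low. Rows of Rn45s (3.31% to 9.97% of a library) were left out of the totals, and values were scaled to 100000 per library.

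Genes above 0 in at least 3 libraries (11190 of 23420) were fitted as log2(value + 1) with limma 3.58.1 (R 4.3.3, intensity trend), with 5 group means in 1 fit of all 15 libraries. P-values were adjusted by Benjamini-Hochberg over all genes, and a gene was called under 0.05. The script was tested on simulated data. Python 3.11.15, pandas 2.3.3 and matplotlib 3.10.9 were used for the rest. The 44 members, the other lists, the markers and the tests were chosen with earlier results of these data known. The naming rule gave all 15 values for up to 24 members called by the F test, by the spread of group means, with each role present. It gave statistics for up to 8 called members per direction and comparison, and up to 4 called genes of each other list. No p-value was computed for a list. Alternatives were values as deposited, median ratios, other pseudocounts and filters, no trend, only the groups compared, a replicate block and each library left out. Promoter windows are RefSeq's (GRCm38.p6) and gene positions those of GENCODE vM21 on GRCm38.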

Additional observations from a re-analysis of the deposited data

How the results depend on the processing

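The values as deposited changed most: they gave 2 members higher in Fraction 2 against DZ, 25 higher and 0 lower in Fraction 1 against Fraction 2, and 0 higher and 39 lower in GC-PB against Fraction 1, and they turned Rfc2 (0.12), Dnmt1 (0.30) and Cdc45 (0.14) in Fraction 1 against Fraction 2. By mean, Fraction 1 and Fraction 2 had 333531 and 335982 molecules, with 1 molecule deposited as 0.318 and 0.115. What sets those constants was not tested. Pold2, the 1 member higher in Fraction 2 against DZ, left a count of 0 with median ratios, without the filter and without the trend, and of 0 to 0 with each library left out. There, 1 member (Rfc1) was lower with a pseudocount of 2, with a mean of at least 1, and with only the groups compared. In Fraction 1 against Fraction 2, 10 were lower under each of those 3 settings, and 1 was higher with median ratios, a mean of at least 1 and only the groups compared; leaving out a library gave 4 to 6 lower. In GC-PB against Fraction 1, 14 were lower with only the groups compared, and leaving out a library gave 22 to 28 lower and 1 to 2 higher. The F test called 32 to 38 members over its alternatives, 33 to 37 with a library left out, and could not be run with only the groups compared. Same-numbered libraries did not deviate together over all genes tested (correlation -0.03 to 0.03 over 30 pairs). Noise in scarce genes can hide a shared source, so this cannot tell whether they share an animal or a sort. The replicate block gave 7 members lower and 0 higher in Fraction 1 against Fraction 2, 26 lower and 1 higher in GC-PB against Fraction 1, 1 higher in Fraction 2 against DZ, and 35 by the F test. Depth limits scarce members: 1 molecule is worth 0.278 to 0.603, and Orc1, E2f1, Pole and the GINS genes rest on few molecules.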
